A study of Homo sapiens with 34 samples.

Results

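Activin with the BMP receptor inhibitor LDN was given for a second day to cells that had spent their first day under posterior primitive streak (PPS) conditions, and the resulting cells (PPS-DE(b), 48 h) were compared with the PPS cells from which they came (PPS-24h, 24 h). The comparison rests on 4 of the 34 RNA-seq libraries of the series, 2 of each condition, chosen by their labels alone, and it was made over all measured genes. All cells were ESI017, a wild-type human embryonic stem cell line, so 1 line stands for every group. PPS medium held BMP4 at 40 ng/ml, the WNT activator CHIR99021 (CHIR) at 6 µM and bFGF at 20 ng/ml, with no activin. On day 2 all 3 agents were withdrawn and DE(b) medium, with 100 ng/ml activin A and 250 nM LDN-193189 (LDN), took their place. Other libraries, also 2 per condition, served as references. PPS cells were moved on day 2 to PM medium (1 µM of the activin receptor inhibitor A8301, 20 ng/ml bFGF and 250 nM LDN) or to LM medium (1 µM A8301, 30 ng/ml BMP4 and 4 µM of the WNT secretion inhibitor IWP2). Cells of the standard endoderm protocol received DE(a) medium, 100 ng/ml activin A and 2 µM CHIR, on day 1 and DE(b) medium on day 2. Control cells stayed undifferentiated in mTeSR PLUS and are labelled 48 h. PPS-24h thus differs from the control in hours of culture as well as in medium. For PM medium, other passages of the study's text list CHIR or describe WNT activation on day 2, which the labels do not. PPS-24h and PPS-DE(b) differ in medium and in hours of culture, and the effects of added activin, of added LDN, of the withdrawn factors and of time cannot be told apart in this comparison.

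The primitive streak is the site where epiblast cells leave the epithelium to become mesoderm or endoderm. BMP and WNT signals are strongest at its posterior end, which gives rise to extra-embryonic and lateral mesoderm, whereas Nodal, whose receptors and SMAD2/3 effectors activin also uses, is required at its anterior end for endoderm. Cells in the streak lower E-cadherin and raise N-cadherin during the epithelial-to-mesenchymal transition (EMT). LDN blocks the type I receptors through which BMPs act.

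The 4 libraries held 16494711 to 20808544 estimated counts, within the range of the series (15522780 to 23439799). Levels are given in counts per 1000000 counts of the library (CPM), which are not corrected for transcript length, so that they compare libraries and not genes. Fold changes are log2 values of PPS-DE(b) minus PPS-24h with their standard errors (SE), fitted by edgeR with 34 libraries, and a gene was called at an edgeR adjusted p under 0.05. The replicates of PPS-24h stood further apart from each other (Euclidean distance 64.3 over 14647 genes on the log2(CPM + 1) scale) than those of PPS-DE(b) (41.5). The labels do not say whether replicates were separate cultures, while the study calls the replicates of its RNA-seq plots biological without saying more, so p-values measure the spread between these samples, which may be technical. The 13 mitochondrially encoded genes took 7.13% and 9.03% of the counts in PPS-24h and 4.28% and 5.33% in PPS-DE(b). None of the 13 passed the edgeR test, their log2 fold changes ran from -0.88 to -0.19, and their part in the results was not tested. In these bulk samples, fewer cells of a type and less RNA per cell cannot be told apart.

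Markers of both states were checked first. Markers of posterior streak summed to 2441 and 2994 CPM in PPS-24h against 2.89 and 2.56 CPM in the control, and to 1301 and 1371 CPM after DE(b), with 5 of 6 called lower. The remaining marker is MIXL1, a homeobox gene of the streak, which stood at 521 and 763 CPM in PPS-24h and 1129.8 and 1241 CPM in PPS-DE(b) and did not pass the test (log2 fold change 0.93, SE 0.40, edgeR adjusted p = 0.108). MIXL1 was called higher in a fit of the 4 libraries alone (edgeR adjusted p = 0.0344). Markers of definitive endoderm summed to 142.4 and 94.7 CPM in PPS-24h and to 4003 and 4774 CPM in PPS-DE(b), with 6 called higher and 1 lower, against 5478 and 5371 CPM in cells of the standard endoderm protocol. CER1 supplied most of that sum, and the single markers did not move alike, as set out with the endoderm genes.

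Of 17895 genes tested, 3673 were called (20.5%), 1856 of them higher (10.4%) and 1817 lower (10.2%) in PPS-DE(b). The called rises had a median of 1.13 and the called falls a median size of 1.58 on the log2 scale. Rises of at least 5 on this scale were found for 121 genes, and falls of that size for 117. The libraries of the groups did not overlap for 58.6% of all genes tested, 26.9% with PPS-DE(b) higher and 31.8% with it lower, so separation of 2 against 2 libraries is by itself common here. Over all genes the median log2 fold change was 0.00. The number called was 2108 without replicate 1 of PPS-DE(b), 2318 without its replicate 2 and 2182 without replicate 2 of PPS-24h.

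**Figure D1:**
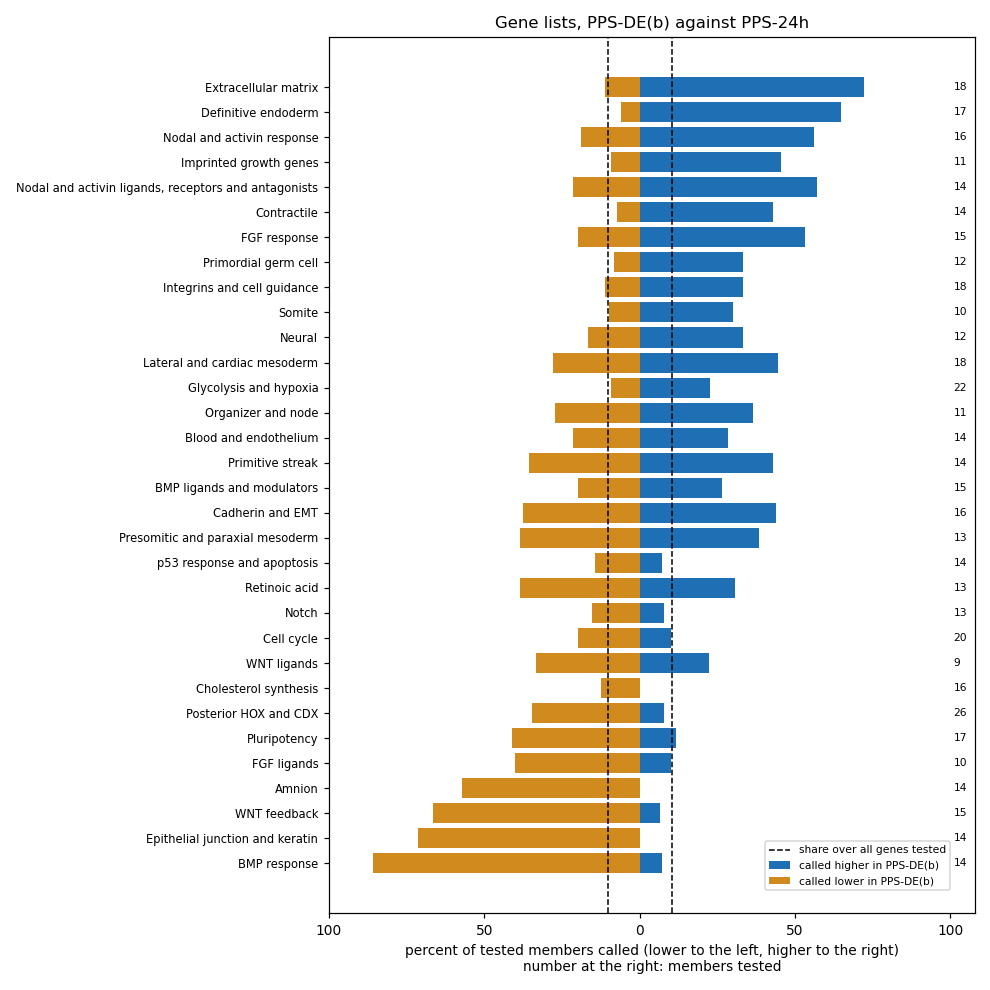
Percent of the tested members of each gene list that were called lower (to the left) or higher (to the right) in PPS-DE(b) against PPS-24h by edgeR, with the number of members tested at the right. Dashed lines mark the shares over all genes tested, 10.2% lower and 10.4% higher. Definitive endoderm and extracellular matrix extend to the right, BMP response, WNT feedback, amnion and epithelial junction to the left.

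Genes of the Nodal and activin pathway were mostly higher after DE(b). Of 14 ligands, receptors and antagonists, 8 were called higher and 3 lower (median log2 fold change 1.78), and of 16 response genes, 9 were called higher and 3 lower (median 1.73). Of all genes tested, 10.4% were called higher and 10.2% lower. NODAL, CER1, LEFTY1 and LEFTY2 are in both lists, so their counts are not independent. NODAL, the ligand itself, stood at 24.7 and 45.9 CPM in PPS-24h and 269.9 and 218 CPM in PPS-DE(b) (log2 fold change 2.83, SE 0.37, edgeR adjusted p = 6.87e-06). Its co-receptor TDGF1 (Cripto) stood at 99.3 and 75.1 CPM before and 411 and 502 CPM after (log2 fold change 2.43, SE 0.40, edgeR adjusted p = 0.000115), below the 738 and 877 CPM of the control. Both libraries of PPS-DE(b) lay above both of PPS-24h for both genes. The antagonists that Nodal signalling itself induces moved furthest. CER1, a secreted inhibitor of Nodal, BMP and WNT at chr9:14719724-14722733 (GRCh38), was at 0.346 and 0 CPM in PPS-24h, where it rests on 7 counts in replicate 1 and none in replicate 2, and at 3329 and 3856 CPM in PPS-DE(b) (log2 fold change 14.21, SE 1.03, edgeR adjusted p = 1.41e-08). LEFTY2, which blocks Nodal receptor complexes and lies at chr1:225936598-225941383, was at 0.296 and 0.361 CPM and then 703 and 546 CPM (log2 fold change 10.92, SE 0.60, edgeR adjusted p = 4.43e-10). Its paralog LEFTY1, whose near-identical sequence makes the split of reads between both uncertain, was at 0 and 0.120 CPM and then 55.8 and 88.9 CPM, at least 440.1-fold higher, edgeR adjusted p = 4.21e-10. The PPS-24h libraries were thus near or at 0 for these 3 genes, while control libraries held 7.79 and 9.21 CPM of LEFTY2. The Nodal-related ligand GDF3 was at 0.887 and 0.503 CPM in PPS-24h and 7.61 and 10.2 CPM in PPS-DE(b) (log2 fold change 3.71, SE 0.60, edgeR adjusted p = 0.000124). FST, follistatin, which binds activin directly, went the other way, from 453 and 429 CPM to 82.8 and 78.6 CPM (log2 fold change -2.41, SE 0.65, edgeR adjusted p = 0.0108). The call of FST was lost without either PPS-DE(b) replicate (edgeR adjusted p = 0.082 and 0.0843).

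Among the transcription factors that respond to Nodal, EOMES, a T-box factor needed for endoderm, stood at 12.2 and 31.0 CPM in PPS-24h and 368 and 412 CPM in PPS-DE(b) (log2 fold change 4.22, SE 0.64, edgeR adjusted p = 4.4e-05). GSC, goosecoid, a homeobox repressor of the anterior streak and organizer, stood at 0.395 and 0.602 CPM and then 23.1 and 32.9 CPM (log2 fold change 5.86, SE 0.43, edgeR adjusted p = 2.52e-09). LHX1, a LIM homeobox gene of the anterior streak, is listed under 2 identifiers between which the authors' estimates may be split, and the more abundant went from 2.57 and 1.93 CPM to 423 and 481 CPM (log2 fold change 7.68, SE 0.66, edgeR adjusted p = 6.86e-08). All 3 rose in both replicates, with no overlap between groups. The signal carriers SMAD2, SMAD3 and SMAD4 were not called, with log2 fold changes of 0.26, 0.14 and 0.23. FOXH1, the SMAD2/3 DNA-binding partner, fell from 174 and 238 CPM to 67.4 and 64.8 CPM (log2 fold change -1.59, SE 0.36, edgeR adjusted p = 0.00246), and SKIL, a feedback repressor of SMAD2/3, fell by 0.92 on the log2 scale (edgeR adjusted p = 0.00122). Of the type I and II receptors, ACVR1B (0.49) and ACVR2A (1.13) rose, ACVR1C (-2.26) fell and ACVR2B (0.05) was not called. The rise of ACVR1B was not called with RLE normalization (edgeR adjusted p = 0.0632) or when any 1 of the 4 libraries was left out, with edgeR adjusted p from 0.0735 to 0.292.

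BMP response genes fell. Of 14 tested, 12 were called lower, 1 higher and 1 was not called (median log2 fold change -2.37). ID1, an inhibitor of differentiation factors and a direct SMAD1/5 target, stood at 236 and 203 CPM in PPS-24h and 16.9 and 10.6 CPM in PPS-DE(b) (log2 fold change -3.95, SE 0.52, edgeR adjusted p = 7.96e-06), below its 66.3 and 62.4 CPM in the control. ID2, ID3 and ID4 fell by smaller amounts (-2.42, -2.35 and -1.74 on the log2 scale). Unlike ID1, ID2 stayed above its control level, at 31.9 and 20.1 CPM against 14.0 and 12.5 CPM. The homeobox gene MSX1 went from 712 and 783 CPM to 76.7 and 69.3 CPM (log2 fold change -3.31, SE 0.39, edgeR adjusted p = 2.12e-06), and TBX3, a T-box repressor of extra-embryonic and lateral tissues, from 514 and 494 CPM to 65.6 and 45.5 CPM (log2 fold change -3.14, SE 0.26, edgeR adjusted p = 1.73e-08). Both were under 2 CPM in the control, so that they fell without reaching the undifferentiated level. The inhibitory SMAD7 fell (-1.66), whereas SMAD6, which acts on BMP receptors, stood at 57.4 and 70.2 CPM and 68.5 and 63.9 CPM and was not called (log2 fold change 0.10, SE 0.21, edgeR adjusted p = 0.787). HAND1, a basic helix-loop-helix factor of lateral and extra-embryonic mesoderm, was the member called higher, at 35 and 18.8 CPM in PPS-24h and 100.0 and 69.3 CPM in PPS-DE(b) (log2 fold change 1.69, SE 0.49, edgeR adjusted p = 0.0169). Its call was lost without replicate 1 of PPS-DE(b) or replicate 2 of PPS-24h (edgeR adjusted p = 0.139 and 0.199), and that of ID4 without replicate 2 of PPS-DE(b) (0.0718).

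The BMP ligands did not follow their response genes. BMP2 went from 40.0 and 91.6 CPM to 476 and 423 CPM (log2 fold change 2.82, SE 0.29, edgeR adjusted p = 3.64e-07) and BMP4 from 112 and 58.1 CPM to 556 and 430.1 CPM (log2 fold change 2.57, SE 0.36, edgeR adjusted p = 1.8e-05), with no overlap between groups. In the control BMP4 was at 5.06 and 4.15 CPM. The type II receptor BMPR2 rose (1.09) and the type I receptor BMPR1A fell (-0.70). The secreted antagonists NOG (noggin) and CHRD (chordin) fell, NOG from 36.3 and 45.2 CPM to 3.44 and 3.96 CPM (log2 fold change -3.42, SE 0.38, edgeR adjusted p = 1.19e-06) and CHRD from 11.8 and 15.5 CPM to 3.27 and 2.56 CPM (log2 fold change -2.18, SE 0.42, edgeR adjusted p = 0.000662). BMPER, which binds BMPs outside the cell, rose (1.43). This rise was lost with DESeq2 (adjusted p = 0.112) and without either PPS-DE(b) replicate or replicate 2 of PPS-24h (edgeR adjusted p = 0.214, 0.0739 and 0.308), and the fall of BMPR1A without replicate 2 of PPS-DE(b) (0.0634). Over the 15 ligands and modulators, 4 were called higher, 3 lower and 8 were not called (median log2 fold change 0.23).

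WNT feedback genes also fell, 10 of 15 called lower and 1 higher (median log2 fold change -2.40). AXIN2, a scaffold of the complex that degrades β-catenin and a general WNT target, stood at 549 and 795 CPM in PPS-24h and 52.6 and 57.3 CPM in PPS-DE(b) (log2 fold change -3.57, SE 0.35, edgeR adjusted p = 1.68e-07), against 45.7 and 39.2 CPM in the control. NOTUM, an enzyme that inactivates WNT ligands, went from 111 and 209 CPM to 3.56 and 2.92 CPM (log2 fold change -5.58, SE 0.88, edgeR adjusted p = 7.32e-05), and RNF43, a ubiquitin ligase that removes WNT receptors, from 88.8 and 157 CPM to 7.47 and 6.79 CPM (log2 fold change -4.07, SE 0.48, edgeR adjusted p = 2.13e-06). All 3 were lower in both PPS-DE(b) libraries than in either PPS-24h library. The secreted antagonist DKK1 fell from 717 and 517 CPM to 60.5 and 46.6 CPM (log2 fold change -3.48, SE 0.47, edgeR adjusted p = 1.19e-05), and the transcription factor SP5 from 193 and 372 CPM to 31.3 and 32.9 CPM (log2 fold change -3.09, SE 0.31, edgeR adjusted p = 3.74e-07). LEF1 and TCF7, through which β-catenin acts on DNA, fell by 2.40 and 2.07 on the log2 scale. LGR5, a receptor for R-spondins, was the member called higher, from 23.5 and 35.4 CPM to 241 and 215 CPM (log2 fold change 3.0, SE 0.40, edgeR adjusted p = 1.09e-05). DKK4, another antagonist, stood at 6.06 and 14.1 CPM and 30.4 and 54.9 CPM and was not called (log2 fold change 2.13, SE 1.60, edgeR adjusted p = 0.386). DKK4 was called in a fit of the 4 libraries alone (edgeR adjusted p = 0.026). Among the ligands, WNT3A (46.7 and 55.2 CPM to 1.97 and 1.58 CPM, log2 fold change -4.79, SE 0.42, edgeR adjusted p = 3.21e-08) and WNT5B (874 and 937 CPM to 80.5 and 51.4 CPM, log2 fold change -3.74, SE 0.43, edgeR adjusted p = 1.54e-06) fell. WNT5A, the non-canonical ligand, stood at 910.2 and 577 CPM before and 860.1 and 687 CPM after and was not called (log2 fold change 0.10, SE 0.26, edgeR adjusted p = 0.835).

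The promoters of SP5, DKK1 and BAMBI are given because they belong to WNT and BMP response genes called lower and hold the letters searched for. BAMBI fell by less than the median of the BMP response list. The sequences are RefSeq promoters on GRCh38.p14, 250 bases before to 50 after the gene start. They are written on the strand of the gene, 5′ to 3′, and capitals mark each match.
SP5, chr2:170715087-170715386 (+): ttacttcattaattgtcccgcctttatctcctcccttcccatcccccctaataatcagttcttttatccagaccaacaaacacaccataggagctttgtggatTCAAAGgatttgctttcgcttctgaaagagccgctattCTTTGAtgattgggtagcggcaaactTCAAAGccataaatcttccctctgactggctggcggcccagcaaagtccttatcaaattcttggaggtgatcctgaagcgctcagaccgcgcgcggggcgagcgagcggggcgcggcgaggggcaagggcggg
DKK1, chr10:52314031-52314330 (+): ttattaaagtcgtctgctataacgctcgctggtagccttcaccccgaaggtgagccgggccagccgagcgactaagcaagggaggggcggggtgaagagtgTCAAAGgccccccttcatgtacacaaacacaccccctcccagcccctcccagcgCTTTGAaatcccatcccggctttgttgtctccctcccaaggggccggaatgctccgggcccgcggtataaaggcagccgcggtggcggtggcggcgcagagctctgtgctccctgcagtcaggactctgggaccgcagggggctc
BAMBI, chr10:28677271-28677570 (+): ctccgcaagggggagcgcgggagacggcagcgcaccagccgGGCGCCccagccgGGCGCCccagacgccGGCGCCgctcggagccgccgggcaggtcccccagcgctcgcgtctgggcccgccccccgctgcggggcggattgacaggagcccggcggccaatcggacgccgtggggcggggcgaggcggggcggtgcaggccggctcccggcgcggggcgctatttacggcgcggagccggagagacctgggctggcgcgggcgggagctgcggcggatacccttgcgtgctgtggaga
In SP5 and DKK1 the capitals are CTTTGA or its reverse complement TCAAAG, the core letters bound by TCF and LEF factors, with 3 matches in SP5 and 2 in DKK1. Of 35116 promoters, 12.9% held this motif on either strand. Among WNT feedback genes, 9 of 15 had a promoter entry and 3 held it, SP5, SP8 and DKK1. SP8, a relative of SP5, was not called (-0.61 on the log2 scale). In BAMBI, which codes for a decoy receptor and fell from 329 and 245 CPM to 117 and 66.4 CPM (log2 fold change -1.61, SE 0.27, edgeR adjusted p = 0.000165), the capitals are GGCGCC, its own reverse complement and a GC-rich SMAD-type element, with 3 matches. This motif was in 19.2% of all promoters and in 3 of 13 BMP response genes with an entry. CTTTGA was found for 4 of the 13 BMP response genes with an entry (30.8%) against 33.3% of the WNT feedback ones. GGCGCC was found for 6 of 11 Nodal response genes (54.5%). A list gene counts if any of its promoter entries matches. The shares over all promoters count entries, so the units differ. A match describes letters only.

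FGF genes were divided, in a medium from which bFGF had been withdrawn. Of 10 FGF ligands, 1 was called higher and 4 lower, and of 15 response genes, 8 were called higher and 3 lower (median log2 fold change 0.67). FGF4, a streak ligand, fell from 121 and 154 CPM to 30.2 and 15.5 CPM (log2 fold change -2.54, SE 0.33, edgeR adjusted p = 7.96e-06). FGF17 went from 4.96 and 8.63 CPM to 10.6 and 52.3 CPM (log2 fold change 2.26, SE 0.68, edgeR adjusted p = 0.0214), and its PPS-DE(b) replicates lay several-fold apart. FGF17 lost its call without replicate 2 of PPS-DE(b) or either PPS-24h replicate (edgeR adjusted p = 0.561, 0.132 and 0.0648). The ERK phosphatase DUSP4 rose (29.1 and 24.9 CPM to 101 and 122 CPM, log2 fold change 2.08, SE 0.28, edgeR adjusted p = 9.45e-06), as did SPRY1, a receptor tyrosine kinase antagonist (4.35 and 1.81 CPM to 74.7 and 69.9 CPM, log2 fold change 4.58, SE 0.57, edgeR adjusted p = 4.55e-06). SPRY4, of the same family, fell from 1068 and 936 CPM to 189.8 and 168 CPM (log2 fold change -2.44, SE 0.38, edgeR adjusted p = 5.33e-05), and so did the ETS factor ETV4 (-2.60). The feedback genes of this list thus moved in opposite directions within a family.

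**Figure D2:**
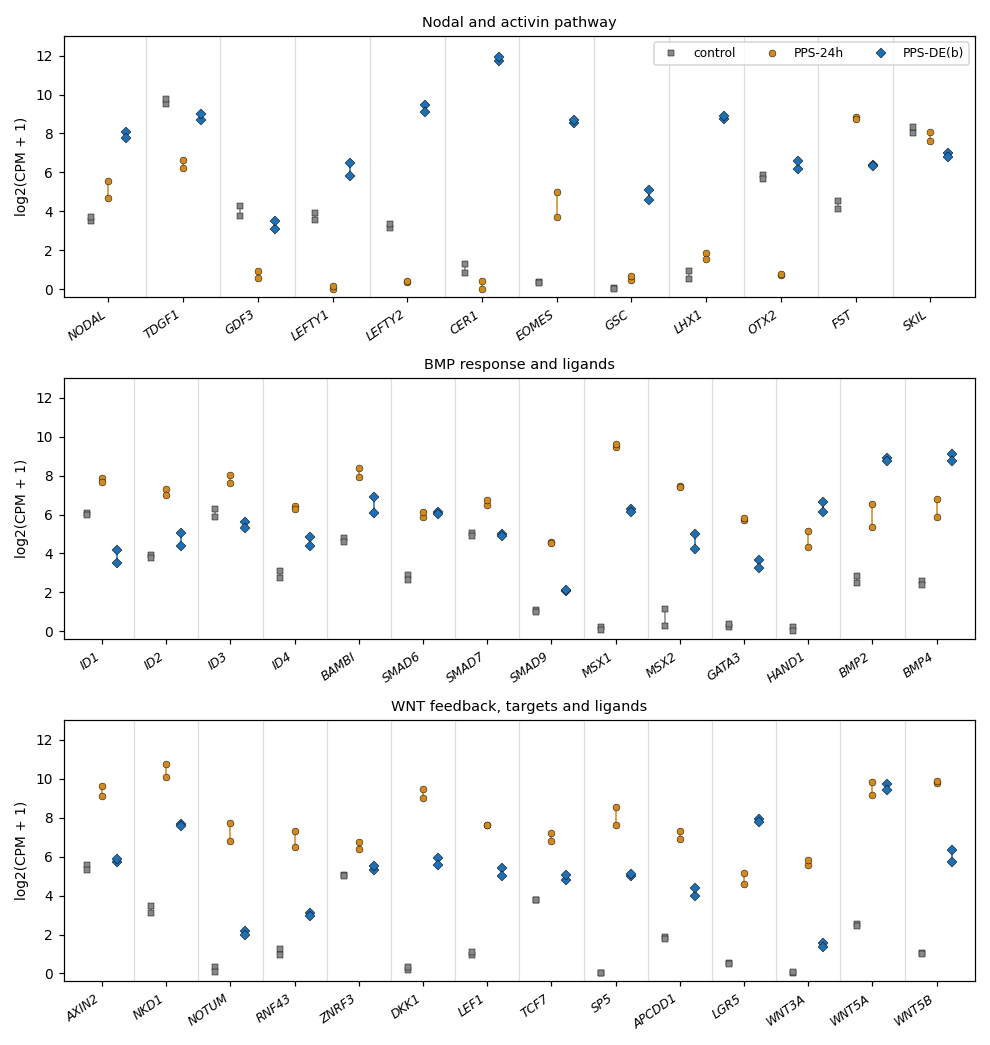
Levels as log2(CPM + 1) of Nodal and activin, BMP and WNT genes in the control, PPS-24h and PPS-DE(b); each point is 1 library, 2 per condition. CER1, LEFTY1 and LEFTY2 rise from near 0 in PPS-24h, while ID1 and AXIN2 fall and BMP2 and BMP4 rise.

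Streak genes moved in both directions. BRA (TBXT), the T-box factor of the streak and nascent mesoderm, stood at 1041 and 1125 CPM in PPS-24h and 108 and 85.6 CPM in PPS-DE(b) (log2 fold change -3.44, SE 0.43, edgeR adjusted p = 4.2e-06). It fell in both replicates but remained far above its control level of 0.0452 and 0.106 CPM. EVX1, a homeobox gene of the posterior streak, went from 311 and 459 CPM to 24.1 and 17.3 CPM (log2 fold change -4.17, SE 0.64, edgeR adjusted p = 6.23e-05), and MESP1, a basic helix-loop-helix factor of early mesoderm, from 99.7 and 69.7 CPM to 22.6 and 20.8 CPM (log2 fold change -1.93, SE 0.64, edgeR adjusted p = 0.0368). The call of MESP1 was lost when any 1 of the 4 libraries was left out (edgeR adjusted p from 0.0679 to 0.186) or with DESeq2 (adjusted p = 0.0927). Of the 14 streak genes, 6 were called higher and 5 lower, and the risers included NODAL, EOMES, GSC and LHX1.

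The posterior homeobox genes did not move as a block. The 3 CDX genes, which specify posterior identity and activate HOX clusters, all fell, CDX2 from 362 and 410.5 CPM to 17.4 and 10.01 CPM (log2 fold change -4.77, SE 0.48, edgeR adjusted p = 3.51e-07), CDX1 by 3.47 and CDX4 by 3.58 on the log2 scale. The first genes of the HOXB and HOXD clusters fell too. HOXB1 stood at 26.5 and 16.7 CPM and then 2.17 and 1.82 CPM (log2 fold change -3.39, SE 0.52, edgeR adjusted p = 6.25e-05) and HOXD1 at 19.6 and 25.6 CPM and then 0.721 and 0.909 CPM (log2 fold change -4.75, SE 0.59, edgeR adjusted p = 1.19e-05). Both were lower in both PPS-DE(b) libraries than in either PPS-24h library. Genes further along the clusters were mostly not called. HOXB9 stood at 159.8 and 133 CPM in PPS-24h and 149 and 117 CPM in PPS-DE(b) (log2 fold change -0.10, SE 0.61, edgeR adjusted p = 0.941), and HOXB8, HOXA9 and HOXA10 had log2 fold changes of 0.29, 0.30 and 0.28. The control was at or near 0 for all of these, and cells of the standard protocol had no HOXB9 counts after DE(b). HOXB6 was an exception and fell from 223 and 169.7 CPM to 81.8 and 68.4 CPM (log2 fold change -1.35, SE 0.38, edgeR adjusted p = 0.0179). Its call was lost without either PPS-DE(b) replicate or replicate 1 of PPS-24h (edgeR adjusted p = 0.0756, 0.133 and 0.0903). MEIS1 and MEIS2, TALE cofactors of HOX proteins, rose (3.88 and 4.62). Over the 26 genes, 2 were called higher, 9 lower and 15 were not called (median log2 fold change -0.53).

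**Figure D3:**
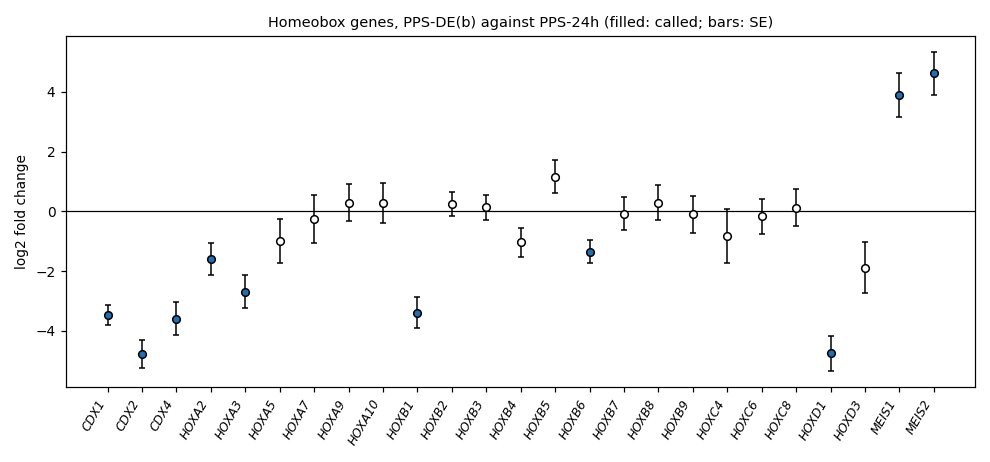
Log2 fold change of PPS-DE(b) against PPS-24h for CDX, HOX and MEIS genes in cluster order, with SE as bars and filled points for genes called by edgeR. CDX genes, HOXB1 and HOXD1 lie well below 0, HOXB9 lies at -0.10, and MEIS1 and MEIS2 lie above 0.

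Most endoderm genes rose, to unequal levels. Of 17 definitive endoderm genes tested, 11 were called higher, 1 lower and 5 were not called (median log2 fold change 3.27). SOX17, the HMG-box factor that defines the lineage, went from 0.247 and 0.602 CPM to 113 and 224 CPM (log2 fold change 8.70, SE 1.39, edgeR adjusted p = 0.000139). GATA6, a zinc-finger factor of endoderm and heart, went from 65.1 and 44.8 CPM to 467 and 563 CPM (log2 fold change 3.27, SE 0.32, edgeR adjusted p = 1.65e-07), and OTX2, a homeobox factor of anterior endoderm and head, from 0.642 and 0.722 CPM to 71.1 and 94.1 CPM (log2 fold change 6.96, SE 0.68, edgeR adjusted p = 1.68e-07). The groups did not overlap for any of the 3. FOXA2, the forkhead factor of endoderm and node, stayed low, at 0.0989 and 0.361 CPM and then 2.17 and 11 CPM (log2 fold change 4.89, SE 1.24, edgeR adjusted p = 0.00738), with the PPS-DE(b) replicates several-fold apart. HHEX, a homeobox gene of anterior endoderm, was at 0 in both PPS-24h libraries and at 6.24 and 11.5 CPM in PPS-DE(b), at least 53.9-fold higher, edgeR adjusted p = 2.69e-07. HNF4A, a nuclear receptor of gut and liver, was likewise at 0 in PPS-24h and at 1.92 and 5.53 CPM in PPS-DE(b), at least 22.7-fold higher, edgeR adjusted p = 8.66e-05. CXCR4, a chemokine receptor widely used to sort endoderm, was the member called lower, at 59.8 and 19.5 CPM in PPS-24h and 9.25 and 17.5 CPM in PPS-DE(b) (log2 fold change -1.53, SE 0.54, edgeR adjusted p = 0.0488), a wide spread within PPS-24h. The call of CXCR4 was lost with DESeq2 (adjusted p = 0.0872) and without either PPS-DE(b) replicate or replicate 1 of PPS-24h (edgeR adjusted p = 0.339, 0.0656 and 0.582), and that of FOXA2 without replicate 2 of PPS-DE(b) or replicate 1 of PPS-24h (0.131 and 0.0713). FOXA1 and FOXA3 were not called (-2.09 and -0.28).

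Genes of paraxial mesoderm moved in both directions. DLL3, a Notch pathway ligand of presomitic mesoderm, rose from 72.4 and 46.3 CPM to 341 and 382 CPM (log2 fold change 2.65, SE 0.35, edgeR adjusted p = 9.24e-06) and RSPO3, a secreted WNT agonist, from 14.6 and 5.00 CPM to 89.2 and 80.6 CPM (log2 fold change 3.15, SE 0.46, edgeR adjusted p = 3.2e-05). In both cases every PPS-DE(b) library lay above every PPS-24h library. FOXC1, a forkhead factor of paraxial mesoderm, rose from 1.98 and 1.20 CPM to 78.5 and 72.5 CPM (log2 fold change 5.59, SE 0.41, edgeR adjusted p = 2.52e-09). CYP26A1, which degrades retinoic acid, rose from 0.198 and 0.241 CPM to 256 and 338 CPM (log2 fold change 10.42, SE 0.89, edgeR adjusted p = 2.61e-08). TBX6, a T-box factor of paraxial mesoderm, stood at 40.7 and 26.5 CPM and 49.3 and 52.8 CPM and was not called (log2 fold change 0.64, SE 0.24, edgeR adjusted p = 0.0615), whereas MSGN1, mesogenin, fell from 92.1 and 64.1 CPM to 13.9 and 10.7 CPM (log2 fold change -2.62, SE 0.24, edgeR adjusted p = 1.02e-06). TBX6 was called higher without replicate 1 of PPS-24h (edgeR adjusted p = 0.0179) and with DESeq2 (adjusted p = 0.0149). Of 13 presomitic genes, 5 were called higher, 5 lower and 3 not. Each library left out took the number lower to 2 or 3, and without replicate 1 of PPS-DE(b) or replicate 2 of PPS-24h 3 were called higher. The somite genes MEOX1 and MEOX2 held at most 3 counts in each of the 4 libraries. PAX3, a paired-box factor of somite and neural crest, fell (53.8 and 68.5 CPM to 2.98 and 1.94 CPM, log2 fold change -4.58, SE 0.67, edgeR adjusted p = 2.97e-05).

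Lateral and cardiac genes were mixed, with 8 of 18 called higher and 5 lower (median log2 fold change 0.39). Without replicate 1 of PPS-DE(b) 5 were called higher, and without its replicate 2, 3 were called lower. FOXF1, a forkhead factor of lateral and extra-embryonic mesoderm, fell from 93.4 and 81.6 CPM to 1.69 and 0.667 CPM (log2 fold change -6.13, SE 0.83, edgeR adjusted p = 2.47e-05). GATA5 also fell (9.97 and 16.8 CPM to 0.240 and 0.182 CPM, log2 fold change -5.88, SE 0.68, edgeR adjusted p = 1.6e-06), whereas GATA4, listed under 2 identifiers, rose for the more abundant one (16.8 and 29.5 CPM to 76.6 and 91.7 CPM, log2 fold change 1.91, SE 0.31, edgeR adjusted p = 0.00012). IRX3, an Iroquois homeobox gene, went from 0.543 and 0.482 CPM to 16.4 and 16.8 CPM (log2 fold change 5.04, SE 0.75, edgeR adjusted p = 3.73e-05) and TBX20, a cardiac T-box factor, from 0.0495 and 0.120 CPM to 5.77 and 6.40 CPM (at least 37.0-fold higher, edgeR adjusted p = 3.45e-05). Genes of the contractile apparatus were called higher 6 times and lower once among 14, among them ACTA1, skeletal actin (16.4 and 9.32 CPM to 114 and 67.0 CPM, log2 fold change 2.85, SE 0.45, edgeR adjusted p = 6.66e-05) and MYL7, an atrial myosin light chain (13.4 and 3.43 CPM to 60.1 and 42.6 CPM, log2 fold change 2.64, SE 0.64, edgeR adjusted p = 0.00474). The number of contractile genes called higher was 3 without replicate 1 of PPS-DE(b) and 2 without replicate 2 of PPS-24h, and MYL7 was not called without replicate 2 of PPS-24h (edgeR adjusted p = 0.0951). APLNR, the apelin receptor of mesoderm and endothelial progenitors, rose from 175 and 86.3 CPM to 1447 and 1102 CPM (log2 fold change 3.33, SE 0.40, edgeR adjusted p = 2.64e-06).

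Markers of other lineages that the cultures could hold did not move alike. Amnion markers summed to 92.2 and 131.2 CPM in PPS-24h and 16.8 and 15.3 CPM in PPS-DE(b), with 2 of 6 called lower, and in the longer amnion list 8 of 14 were called lower and none higher (median log2 fold change -2.18). Without replicate 1 or replicate 2 of PPS-DE(b), 5 and 4 were called lower. TFAP2A, an AP-2 factor of amnion and surface ectoderm, fell from 37.4 and 72.5 CPM to 3.77 and 4.19 CPM (log2 fold change -3.75, SE 0.45, edgeR adjusted p = 2.49e-06). Germ cell markers summed to 30.8 and 27.0 CPM before and 43.3 and 63.7 CPM after. Of these 5, 1 was called higher, PRDM1, a zinc-finger repressor also used in endoderm (log2 fold change 2.48), and of the longer list of 12 germ cell genes, 4 were called higher and 1 lower. The number higher was 2 without replicate 2 of PPS-DE(b) or either PPS-24h replicate, and none was called lower without replicate 1 of PPS-DE(b) or replicate 2 of PPS-24h. NANOS3, a defining germ cell gene, was at 0.840 and 1.5 CPM and 0 and 0.121 CPM. Neural markers summed to 692 and 665 CPM in PPS-24h and 628 and 571 CPM in PPS-DE(b), with none called and SOX1 and PAX6 at or under 3 counts in all 4 libraries. The longer neural list had 4 of 12 called higher and 2 lower. Blood and endothelial markers summed to 185 and 255 CPM before and 78.4 and 89.8 CPM after, with 1 of 5 tested called lower and TAL1 at or under 3 counts in all 4 libraries, and the longer list had 4 of 14 called higher and 3 lower, with 1 lower without either PPS-DE(b) replicate and 2 higher without replicate 1 of PPS-24h. Markers of undifferentiated cells summed to 596.9 and 573.9 CPM in PPS-24h and 206.3 and 195.6 CPM in PPS-DE(b), against 1880 and 1600 CPM in the control. Of these 5, 1 was called higher, PRDM14 (log2 fold change 1.13), and 1 lower, POU5F1, and of 17 pluripotency genes 2 were called higher and 7 lower. PRDM14 lost its call without replicate 2 of PPS-DE(b) or either PPS-24h replicate (edgeR adjusted p = 0.327, 0.165 and 0.0803), which left 1 pluripotency gene called higher. POU5F1 (OCT4), listed under several identifiers, fell from 427 and 462 CPM to 87.1 and 83.2 CPM for the most abundant (log2 fold change -2.34, SE 0.21, edgeR adjusted p = 4.17e-08), and SALL4, a zinc-finger factor, fell as well (-1.59). NANOG stood at 12.4 and 11.4 CPM and 10.2 and 8.67 CPM and was not called (log2 fold change -0.29, SE 0.48, edgeR adjusted p = 0.724).

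Epithelial adhesion genes fell and several mesenchymal genes rose. E-CAD (CDH1), the epithelial cadherin, stood at 717 and 861 CPM in PPS-24h and 105 and 94.8 CPM in PPS-DE(b) (log2 fold change -2.94, SE 0.28, edgeR adjusted p = 9.49e-08), against 303 and 299 CPM in the control. N-CAD (CDH2) stood at 433 and 357 CPM and then 669 and 633 CPM (log2 fold change 0.76, SE 0.15, edgeR adjusted p = 0.000663), against 46.9 and 48.2 CPM in the control. PPS-24h thus held both cadherins above the control, and after DE(b) CDH1 was below it in both libraries and CDH2 higher still. The epithelial adhesion molecule EPCAM (-1.46), the placental cadherin CDH3 (-2.12), and the epithelial regulators GRHL2, a transcription factor (-3.77), and ESRP1, a splicing factor (-1.72), all fell. Of 14 epithelial junction and keratin genes, 10 were called lower and none higher (median log2 fold change -1.18). The number lower was 6 and 5 without replicate 1 and 2 of PPS-DE(b) and 6 without replicate 2 of PPS-24h. Among them CLDN7, a tight junction claudin, fell from 87.2 and 83.0 CPM to 9.42 and 11.8 CPM (log2 fold change -2.96, SE 0.30, edgeR adjusted p = 3.24e-07), whereas the keratins KRT8 and KRT18 were not called (0.24 and 0.38). Against PPS cells given PM medium, 2 of the 14 were called higher and 1 lower (median log2 difference 0.335). Against those given LM medium, 1 was called higher and 8 lower (median log2 difference -0.89).

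Of the EMT transcription factors, SNAI1 (Snail) stood at 64.9 and 40.3 CPM in PPS-24h and 49.9 and 44.8 CPM in PPS-DE(b) and was not called (log2 fold change -0.11, SE 0.23, edgeR adjusted p = 0.791). SNAI2 (Slug) rose from 13 and 3.68 CPM to 28.8 and 22.7 CPM (log2 fold change 1.65, SE 0.47, edgeR adjusted p = 0.0154), ZEB1 from 1.38 and 0.903 CPM to 17.7 and 20.4 CPM (log2 fold change 4.08, SE 0.31, edgeR adjusted p = 5.7e-09) and ZEB2 from 15.3 and 8.26 CPM to 47.6 and 43.3 CPM (log2 fold change 1.98, SE 0.39, edgeR adjusted p = 0.000827). The call of SNAI2 was lost without replicate 1 of PPS-DE(b) or replicate 2 of PPS-24h (edgeR adjusted p = 0.108 and 0.226). The zinc-finger homeobox factors ZEB1 and ZEB2 repress E-cadherin, and their groups did not overlap. TWIST1 was not called (0.38). VIM (vimentin), the intermediate filament of mesenchymal cells, rose from 383 and 232 CPM to 933 and 866 CPM (log2 fold change 1.59, SE 0.32, edgeR adjusted p = 0.00106). Against PPS cells given PM medium, ZEB1, ZEB2, SNAI2 and VIM were not called (log2 differences -0.0013, -0.94, -1.06 and -0.30). SNAI1 was called lower than there (-0.81, edgeR adjusted p = 0.0185).

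Genes of the extracellular matrix mostly rose, with 13 of 18 called higher and 2 lower (median log2 fold change 1.48). Against PPS cells given PM medium, 5 were called higher and 1 lower (median log2 difference 0.07). Against those given LM medium, 4 were called higher and 5 lower (median log2 difference -0.34). FN1, fibronectin, on which mesendoderm migrates, went from 1166 and 651 CPM to 5382 and 4675 CPM (log2 fold change 2.51, SE 0.29, edgeR adjusted p = 1.93e-06). FBN1, the microfibril protein fibrillin, went from 12.3 and 18.0 CPM to 259.9 and 191 CPM (log2 fold change 3.94, SE 0.30, edgeR adjusted p = 4.79e-09), and HAS2, which makes hyaluronan, from 174 and 166 CPM to 947 and 802 CPM (log2 fold change 2.40, SE 0.33, edgeR adjusted p = 1.19e-05). All 3 rose with no overlap. The basement membrane collagens COL4A1 and COL4A2 rose (2.16 and 2.11), as did LAMA1 (1.31) and LAMB1 (1.63), while LAMC1 (-1.09) and COL6A1 (-0.83) fell. COL6A1 lost its call without either PPS-DE(b) replicate or replicate 2 of PPS-24h (edgeR adjusted p = 0.105, 0.0582 and 0.34). The fibronectin receptors ITGA5 (2.09) and ITGA4 (0.876 and 0.256 CPM to 19 and 40.4 CPM, log2 fold change 5.69, SE 0.52, edgeR adjusted p = 6.86e-08) rose, whereas ITGB1 was not called (-0.11).

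**Figure D4:**
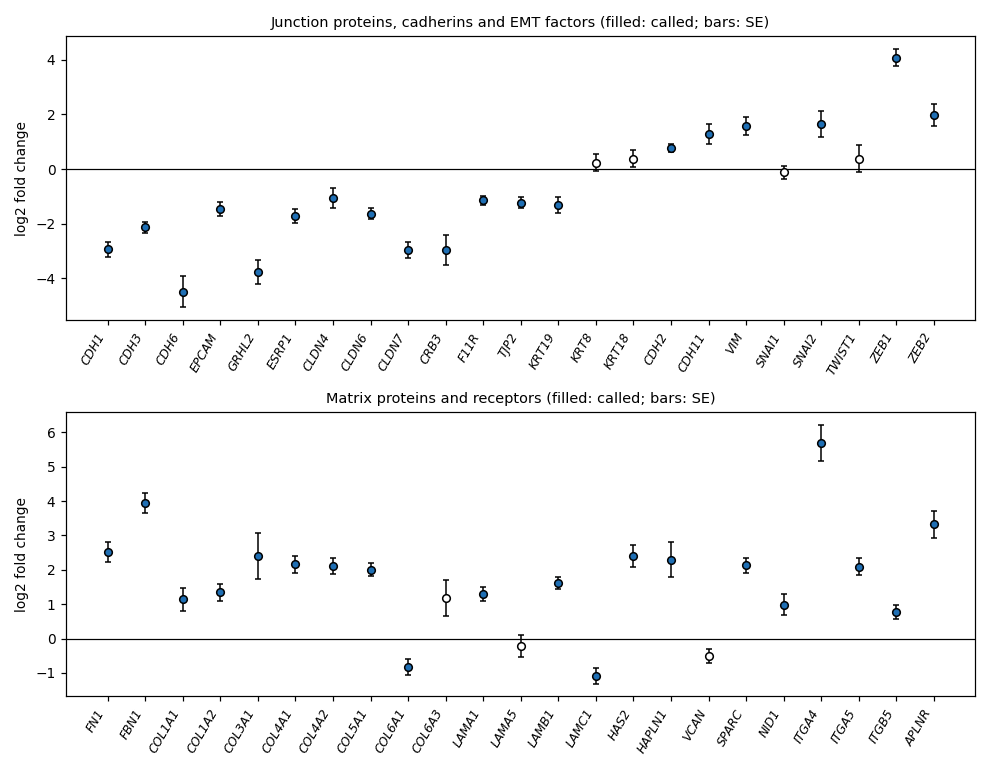
Log2 fold change of PPS-DE(b) against PPS-24h for junction proteins, cadherins and EMT factors (upper panel) and for matrix proteins and receptors (lower panel), with SE as bars and filled points for called genes. CDH1 and GRHL2 lie below 0, ZEB1 and FBN1 near 4 on the log2 scale, and SNAI1 near 0.

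Lists of general cell processes were called in differing shares, to be read beside the 10.4% of all genes tested called higher and 10.2% called lower. Of 16 cholesterol synthesis genes, 2 were called lower and none higher. Of 20 cell cycle genes, 2 were called higher and 4 lower, the falls including CCND1, cyclin D1 (605 and 690.4 CPM to 237 and 239 CPM, log2 fold change -1.40, SE 0.17, edgeR adjusted p = 2.61e-06) and CCND2 (-1.55), whereas the proliferation marker MKI67 was not called (-0.09). Of 14 p53 response genes, 1 was called higher and 2 lower, the falls being PMAIP1 (NOXA), a BH3-only death gene (-2.13), and CDKN1A, a cyclin kinase inhibitor (-1.24). CDKN1A lost its call without replicate 2 of either group (edgeR adjusted p = 0.111 and 0.0758 for PPS-DE(b) and PPS-24h). Of 22 glycolysis and hypoxia genes, 5 were called higher and 2 lower. The number higher among these was 3 without replicate 2 of PPS-DE(b). Among the retinoic acid genes, the synthesising enzyme ALDH1A2 fell from 9.70 and 6.56 CPM to 0.384 and 0.364 CPM (log2 fold change -4.38, SE 0.69, edgeR adjusted p = 6.73e-05), opposite to CYP26A1. Of 11 imprinted growth genes, 5 were called higher and 1 lower, with PLAGL1, a zinc-finger factor, at 8.31 and 6.22 CPM and then 49.2 and 56.1 CPM (log2 fold change 2.90, SE 0.62, edgeR adjusted p = 0.00151) and PEG3 at 219 and 262 CPM and then 47.1 and 47.6 CPM (log2 fold change -2.30, SE 0.25, edgeR adjusted p = 7.19e-07). Without replicate 1 of PPS-DE(b) or replicate 2 of PPS-24h, 2 imprinted genes were called higher.

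The rule for named genes took the 10 largest rises and falls among genes with 1 identifier. Besides CER1, LEFTY2, LEFTY1, CYP26A1 and SOX17, the rises were genes at 0 in both PPS-24h libraries. They were RFPL2, of the Ret finger protein-like family (15.9 and 17 CPM in PPS-DE(b), at least 100.4-fold higher, edgeR adjusted p = 0.000195), BTK, Bruton's tyrosine kinase of B cells (14.4 and 13.6 CPM, at least 85.2-fold higher, edgeR adjusted p = 1.93e-06), AL139300.1 (16.0 and 11.5 CPM, at least 83.6-fold higher, edgeR adjusted p = 0.00709), and the red cell glycophorins GYPB (14.6 and 10.5 CPM, at least 76.2-fold higher, edgeR adjusted p = 7.42e-05) and GYPE (12.3 and 8.48 CPM, at least 63.1-fold higher, edgeR adjusted p = 1.93e-05). The glycophorins share sequence, so their reads are uncertain in split, and AL139300.1 was at 7.06 and 14.4 CPM in the control. AL139300.1 was not called without either PPS-24h replicate (edgeR adjusted p = 0.0529 and 0.0654). These bounds use 3 counts per library as the floor. Among the falls, GABRA4, a GABA receptor subunit at chr4:46918900-46993581, went from 17.9 and 19.6 CPM to 0 in both libraries, at least 115-fold lower, edgeR adjusted p = 0.000163. DLX2, a distal-less homeobox gene, stood at 19.9 and 21.0 CPM in PPS-24h and at 0.0961 and 0.0606 CPM in PPS-DE(b), at least 125-fold lower, edgeR adjusted p = 1.3e-06. SERPINB2, a plasminogen activator inhibitor, stood at 21.3 and 6.69 CPM and then 0.0961 and 0 CPM, at least 85.8-fold lower, edgeR adjusted p = 0.00165, and TNFRSF9, a costimulatory receptor, at 13.3 and 8.34 CPM and then 0.0481 and 0 CPM, at least 66.3-fold lower, edgeR adjusted p = 4.33e-06. With DESeq2, SERPINB2 was not called (adjusted p = 0.312). CKMT2, a mitochondrial creatine kinase, went from 24.1 and 33.0 CPM to 0.433 and 0.243 CPM (log2 fold change -6.31, SE 1.11, edgeR adjusted p = 0.00025). TTC29 (93.6 and 87.1 CPM to 1.59 and 0.896 CPM) and ACSL6, an acyl-CoA synthetase (25.7 and 22.8 CPM to 0.384 and 0.606 CPM), fell as well, by 6.11 and 5.57 on the log2 scale. FOXF1, GATA5 and NOTUM completed the 10 falls.

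Whether the second day in DE(b) does the same to PPS cells as to cells from DE(a) was tested as an interaction, the change of PPS cells minus that of DE(a) cells. DE(a) cells had 100 ng/ml activin A on both days. PPS cells had it on day 2 only, when they also lost BMP4 and bFGF. CHIR was withdrawn on day 2 from both, at 6 µM in PPS medium and 2 µM in DE(a) medium. A difference in this change of medium and one in response cannot be told apart. The interaction was called for 3567 genes (19.9%), 1766 with a higher (9.87%) and 1801 with a lower value (10.1%) in PPS cells. The number called was 2367 without replicate 1 of PPS-DE(b), 2150 without replicate 2 of PPS-24h and 2056 without replicate 2 of DE(a)-DE(b). NODAL was already at 356 and 288 CPM in DE(a)-24h and at 229 and 182 CPM after DE(b), and its change was called higher in PPS cells (difference of log2 fold changes 3.55, SE 0.50, edgeR adjusted p = 4.66e-05). EOMES was at 666 and 631 CPM in DE(a)-24h and 439.8 and 443 CPM after DE(b) (difference of log2 fold changes 4.85, SE 0.83, edgeR adjusted p = 0.000358), and GSC at 82.5 and 68.7 CPM and 83.5 and 108 CPM (difference of log2 fold changes 5.59, SE 0.52, edgeR adjusted p = 6.56e-07). EOMES and GSC thus ended lower in both PPS-DE(b) libraries than in either DE(a)-DE(b) library. CER1 was at 1795 and 1319.8 CPM in DE(a)-24h and 4296 and 3886 CPM after DE(b) (difference of log2 fold changes 12.89, SE 1.13, edgeR adjusted p = 9.89e-07). SOX17 was at 91.7 and 24.3 CPM and 330.4 and 439.6 CPM (difference of log2 fold changes 6.04, SE 1.64, edgeR adjusted p = 0.0139), and OTX2 at 87.2 and 81.1 CPM and 327 and 344 CPM (difference of log2 fold changes 5.03, SE 0.81, edgeR adjusted p = 0.000202). The interaction of SOX17 was lost without either PPS-24h replicate or replicate 1 of DE(a)-24h (edgeR adjusted p = 0.0594, 0.0557 and 0.0723). Of the 17 definitive endoderm genes, the interaction was called higher for 7, lower for 3 and not for 7. On the log2 scale SOX17 and OTX2 rose by more in PPS cells, where they started near 0. In CPM their rises were smaller than in DE(a) cells, and they ended lower than in the standard protocol. MIXL1 went from 1368 and 1549 CPM to 559 and 565 CPM there (difference of log2 fold changes 2.38, SE 0.57, edgeR adjusted p = 0.00525).

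CXCR4 showed the opposite sign, from 1.76 and 0.805 CPM in DE(a)-24h to 168 and 154 CPM in DE(a)-DE(b), and its interaction was among the negative ones taken by the rule (difference of log2 fold changes -8.42, SE 0.89, edgeR adjusted p = 2.17e-06). Of 13 presomitic genes the interaction was called higher for 7 and lower for 1, of 18 lateral and cardiac genes higher for 6 and lower for 1, and of 10 somite genes higher for 2, and the others were not called. APLNR went from 141 and 93.9 CPM to 30.6 and 25.6 CPM in DE(a) cells (difference of log2 fold changes 5.46, SE 0.56, edgeR adjusted p = 1.64e-06), DLL3 from 10.3 and 6.37 CPM to 4.66 and 7.79 CPM (difference of log2 fold changes 3.15, SE 0.51, edgeR adjusted p = 0.000201), and RSPO3 from 8.51 and 12.7 CPM to 0.197 and 0.523 CPM (difference of log2 fold changes 8.12, SE 0.80, edgeR adjusted p = 1.64e-06). All 3 rose in PPS cells and were low in DE(a)-DE(b). FOXC1 was at 11 and 7.31 CPM and 9.66 and 8.90 CPM in DE(a) cells (difference of log2 fold changes 5.64, SE 0.52, edgeR adjusted p = 5.76e-07). CDH1 stood at 169 and 172 CPM and 116 and 83.4 CPM, near PPS-DE(b), but its day-2 fall was larger in PPS cells (difference of log2 fold changes -2.09, SE 0.37, edgeR adjusted p = 0.000431). ZEB1 was at 1.97 and 3.33 CPM and 3.86 and 3.78 CPM (difference of log2 fold changes 3.63, SE 0.42, edgeR adjusted p = 5.7e-06), and TBX3 at 11.3 and 9.93 CPM and 9.81 and 14.5 CPM (difference of log2 fold changes -3.25, SE 0.36, edgeR adjusted p = 3.51e-06). By the rule, LRRTM1, a neuronal leucine-rich repeat protein, rose from 0.0991 and 0.241 CPM to 41.0 and 32.9 CPM in PPS cells and stood at 5.19 and 6.39 CPM and 2.72 and 1.64 CPM in DE(a) cells (difference of log2 fold changes 9.28, SE 1.35, edgeR adjusted p = 6.81e-05). ADAMTS18, a secreted metalloprotease, stood at 1.33 and 4.67 CPM and 0.240 and 0.424 CPM in PPS cells and 0.726 and 1.45 CPM and 11.7 and 35.5 CPM in DE(a) cells (difference of log2 fold changes -7.49, SE 1.06, edgeR adjusted p = 5.96e-05). GADD45G, a stress-response gene, fell from 65.6 and 70.4 CPM to 2.36 and 2.43 CPM in PPS cells and stood at 1.66 and 1.94 CPM and 10.03 and 13 CPM in DE(a) cells (difference of log2 fold changes -7.39, SE 0.45, edgeR adjusted p = 1.36e-09).

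The remaining genes of this rule had a condition at 3 counts or fewer, so their fitted differences are not given. ARSF, arylsulfatase F, stood at 0.148 and 0.241 CPM and 14.6 and 13.1 CPM in PPS cells against 0.674 and 1.18 CPM and 0 and 0 CPM in DE(a) cells (edgeR adjusted p = 4.57e-05). RFPL2 stood at 5.96 and 1.72 CPM and 7.80 and 2.56 CPM in DE(a) cells (edgeR adjusted p = 0.00154) and AL139300.1 at 7.27 and 11.3 CPM and 5.33 and 0 CPM (edgeR adjusted p = 0.0072). GABRA4 held at most 2 counts in each of the 4 DE(a) libraries (edgeR adjusted p = 0.0207), and RNASE1, a secreted ribonuclease, stood at 0 and 0.107 CPM and 14.8 and 6.98 CPM (edgeR adjusted p = 6.26e-05). The interaction of GABRA4 was lost without replicate 2 of DE(a)-DE(b) (edgeR adjusted p = 1).

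Media of day 2 were compared directly among PPS cells at 48 h, which removes the difference in time. PM medium may also have held CHIR, which other passages of the study's text list. Its part in the differences from PPS-PM was not tested. Against PPS-PM, whose medium shares LDN but blocks activin receptors, 3227 genes were called (18%), 1747 higher in PPS-DE(b) (9.76%) and 1480 lower (8.27%). The count was 1973 and 1830 without replicate 1 and 2 of PPS-DE(b) and 1770 without replicate 2 of PPS-PM. Of 16 Nodal response genes, 14 were called higher and none lower (median log2 difference 7.32). NODAL stood at 0.475 and 0.952 CPM in PPS-PM (log2 difference 8.49, SE 0.52, edgeR adjusted p = 2.33e-10), EOMES at 0.389 and 0.571 CPM (log2 difference 9.73, SE 0.89, edgeR adjusted p = 6.78e-08), and CER1 at 0 in both libraries, at least 26377-fold higher, edgeR adjusted p = 7.88e-09. SOX17, LEFTY1 and LEFTY2 were likewise at or under 3 counts per library in PPS-PM and higher in PPS-DE(b), at least 1235-fold higher, edgeR adjusted p = 6.02e-05 for SOX17, at least 531-fold higher, edgeR adjusted p = 8.62e-11 for LEFTY1 and at least 4585-fold higher, edgeR adjusted p = 1.09e-10 for LEFTY2. FOXQ1, a forkhead factor, was at 0 in PPS-PM and 64.3 and 61.5 CPM in PPS-DE(b), at least 462-fold higher, edgeR adjusted p = 6.9e-08. These genes were thus nearly absent in PPS-PM, whose medium had the receptor inhibitor and bFGF and no activin. The effects of these cannot be told apart. CER1, SOX17, LEFTY1 and LEFTY2 were nearly absent in PPS-24h too, which had no inhibitor. BMP response genes were divided, with 6 of 14 higher and 2 lower. WNT feedback genes were lower in 8 of 15 and higher in 1, AXIN2 standing at 137 and 205 CPM in PPS-PM (log2 difference -1.57, SE 0.32, edgeR adjusted p = 0.00136). Posterior HOX and CDX genes were lower in 14 of 26 and higher in 3, with HOXB9 at 484 and 535 CPM (log2 difference -1.87, SE 0.63, edgeR adjusted p = 0.0464). The HOXB9 call was lost with DESeq2 (adjusted p = 0.0607) and when any 1 of the 4 libraries was left out, with edgeR adjusted p from 0.081 to 0.237.

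Genes of presomitic mesoderm were lower than in PPS-PM in 7 of 13 and higher in 5. Those higher included CYP26A1 (log2 difference 9.57, edgeR adjusted p = 2.49e-08) and MESP1 (2.985, edgeR adjusted p = 0.0038). The others were MESP2, RIPPLY1 and RIPPLY2, each at or under 3 counts per library in PPS-PM. TBX6 stood at 183 and 195 CPM in PPS-PM (log2 difference -1.82, SE 0.24, edgeR adjusted p = 1.14e-05) and DLL3 at 633 and 1123 CPM (log2 difference -1.21, SE 0.33, edgeR adjusted p = 0.0132). RSPO3 stood at 577 and 547 CPM (log2 difference -2.65, SE 0.43, edgeR adjusted p = 0.000137), whereas FOXC1, at 99.4 and 134 CPM, was not called (log2 difference -0.56, SE 0.31, edgeR adjusted p = 0.23). CDH1 stood at 99.5 and 110.4 CPM in PPS-PM and was not called (log2 difference -0.00, SE 0.26, edgeR adjusted p = 1), and CDH2 at 487 and 475 CPM was called with a small difference (log2 difference 0.51, SE 0.15, edgeR adjusted p = 0.0187). The CDH2 difference was lost when any 1 of the 4 libraries was left out (edgeR adjusted p from 0.0601 to 0.119), and that of DLL3 without either PPS-DE(b) replicate or replicate 2 of PPS-PM (0.111, 0.0668 and 0.272). The largest negative differences were in the hair keratins KRT71 and KRT74, at 0 in PPS-DE(b) and 58.2 and 111 CPM for KRT71 in PPS-PM (at least 520.1-fold lower, edgeR adjusted p = 0.000455), with at least 164-fold lower, edgeR adjusted p = 0.00026 for KRT74. KRT71 and KRT74 are paralogs whose reads may be shared, and KRT71 was not called with DESeq2 (adjusted p = 0.309). TRGC1, a T-cell receptor constant gene, was at 0 in PPS-DE(b) and 6.17 and 16.0 CPM in PPS-PM, at least 67.9-fold lower, edgeR adjusted p = 0.00303. EDAR, the ectodysplasin receptor, stood at 0.336 and 0.667 CPM in PPS-DE(b) and 99.3 and 197 CPM in PPS-PM (log2 difference -8.16, SE 0.88, edgeR adjusted p = 1.27e-06), and TLL2, a tolloid protease, at 0.192 and 0.0606 CPM and 23.5 and 55.7 CPM (log2 difference -8.09, SE 1.11, edgeR adjusted p = 1.51e-05).

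Against PPS-LM, whose medium gives BMP4 and blocks activin receptors and WNT secretion, 3403 genes were called (19%), 1777 higher in PPS-DE(b) (9.93%) and 1626 lower (9.09%). The count was 2250 and 2126 without replicate 1 and 2 of PPS-DE(b) and 2180 without replicate 2 of PPS-LM. BMP response genes were lower in 13 of 14 and none was higher (median log2 difference -3.07), and amnion genes were lower in 13 of 14. HAND1 stood at 1892 and 1826 CPM in PPS-LM (log2 difference -4.46, SE 0.54, edgeR adjusted p = 2.26e-06), GATA3 at 107 and 136 CPM (log2 difference -3.60, SE 0.41, edgeR adjusted p = 1e-06) and FOXF1 at 70.6 and 68.2 CPM (log2 difference -5.84, SE 0.82, edgeR adjusted p = 3.26e-05). For these lateral and amnion factors both PPS-LM libraries lay above both PPS-DE(b) libraries. Of 13 presomitic genes, 11 were higher in PPS-DE(b), with TBX6 at 2.95 and 2.90 CPM in PPS-LM (log2 difference 4.12, SE 0.29, edgeR adjusted p = 7.94e-10). Streak genes were higher in 12 of 14, TBXT standing at 0.525 and 1.20 CPM (log2 difference 6.80, SE 0.57, edgeR adjusted p = 1.02e-08). EOMES was at 1 count in each PPS-LM library, at least 2428-fold higher, edgeR adjusted p = 2.55e-08. WNT feedback genes were higher in 9 of 15, with AXIN2 at 24.2 and 22.0 CPM in PPS-LM (log2 difference 1.25, SE 0.33, edgeR adjusted p = 0.00857), the reverse of its order against PPS-PM. This AXIN2 call was lost without either PPS-LM replicate (edgeR adjusted p = 0.051 and 0.0731).

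The difference of APLNR was not called against either medium, at 721 and 643 CPM in PPS-PM (log2 difference 0.98, SE 0.37, edgeR adjusted p = 0.0717) and 1349 and 1068 CPM in PPS-LM (log2 difference 0.07, SE 0.37, edgeR adjusted p = 0.938). With DESeq2 the difference of APLNR from PPS-PM was called (adjusted p = 0.0422). CDH1 did separate it from PPS-LM, where it stood at 616 and 763 CPM (log2 difference -2.79, SE 0.27, edgeR adjusted p = 1.05e-07), and CDH2 stood at 235 and 204 CPM (log2 difference 1.57, SE 0.15, edgeR adjusted p = 8.1e-08). The E-CAD transcript in PPS-LM lay several-fold above both other media. Among the genes of the rule, CER1, LEFTY2, LEFTY1 and DKK4 were at 0 in PPS-LM, with at least 22348-fold higher, edgeR adjusted p = 5.89e-09 for CER1, at least 3885-fold higher, edgeR adjusted p = 1.04e-10 for LEFTY2, at least 450.0-fold higher, edgeR adjusted p = 1.04e-10 for LEFTY1 and at least 265-fold higher, edgeR adjusted p = 0.0315 for DKK4. DKK4 lost its call when any 1 of the 4 libraries was left out (edgeR adjusted p from 0.0517 to 0.16). In the other direction, RSPO2, a WNT agonist, was at 0 in PPS-DE(b) and 197 and 90.8 CPM in PPS-LM, at least 883-fold lower, edgeR adjusted p = 1.62e-08. HGF, hepatocyte growth factor, stood at 0.144 and 0.546 CPM in PPS-DE(b) and 1032 and 862 CPM in PPS-LM (log2 difference -11.48, SE 0.89, edgeR adjusted p = 3.93e-09). MMP13, a collagenase (at least 110.1-fold lower, edgeR adjusted p = 0.000726), ENTPD3, an ectonucleotidase (at least 102-fold lower, edgeR adjusted p = 5.14e-06), and RGS13, a regulator of G-protein signalling (at least 87.0-fold lower, edgeR adjusted p = 0.000161), were at 0 in PPS-DE(b). With DESeq2, MMP13 and RGS13 were not called (adjusted p = 0.424 and 0.443).

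**Figure D5:**
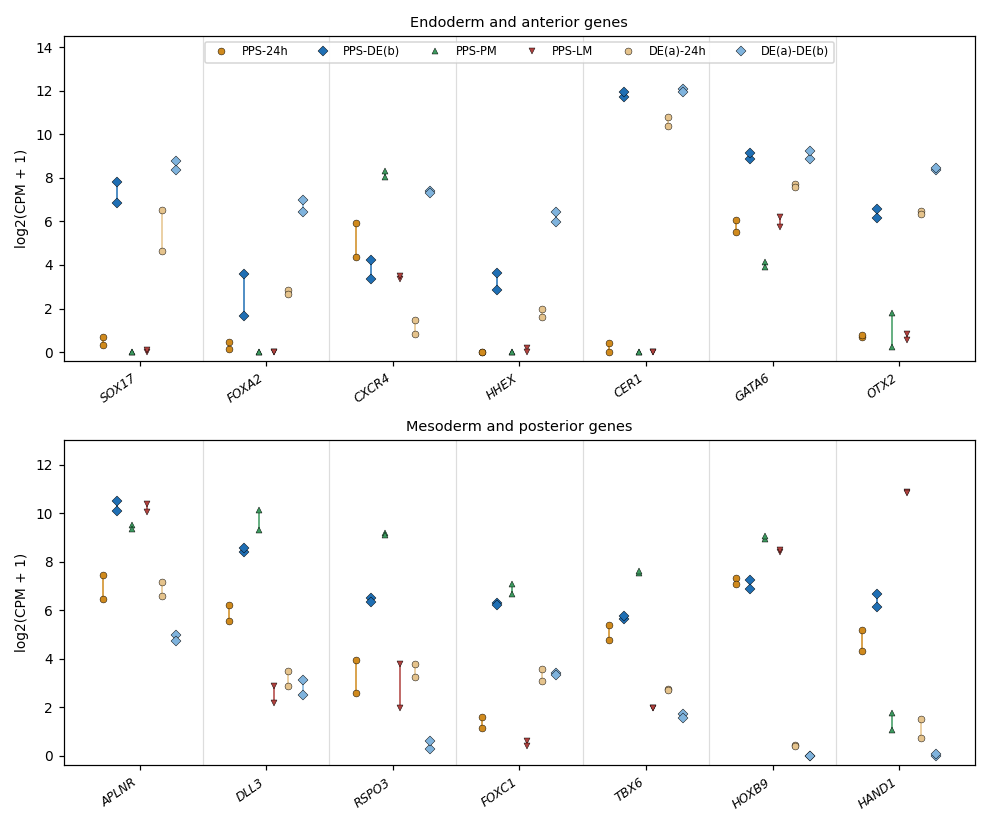
Levels as log2(CPM + 1) of endoderm and anterior genes (upper panel) and of mesoderm and posterior genes (lower panel) in PPS-24h, PPS-DE(b), PPS-PM, PPS-LM, DE(a)-24h and DE(a)-DE(b); each point is 1 library, 2 per condition. CER1 and SOX17 are high in PPS-DE(b) and DE(a)-DE(b), CXCR4 is high in PPS-PM and DE(a)-DE(b), and APLNR, DLL3 and HOXB9 are low in DE(a)-DE(b).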

How the data were processed

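RNA-seq was made from 34 libraries of ESI017 cells, 2 for each of 17 conditions. The authors mapped reads with Salmon 1.10.2 against GRCh38 transcripts, with corrections for sequence and GC bias, and deposited estimated counts summed to genes in R 4.4.2; versions come from the submitters' processing notes, and the annotation release is not given in the sources used here. Such counts are corrected neither for depth nor for length, and reads of paralogs are shared out by an estimate. Groups were taken from the labels.

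Those estimates, rounded to integers, were fitted with edgeR 4.0.16 in R 4.3.3 (quasi-likelihood test, TMM normalization, filterByExpr, all 34 libraries, 1 mean per condition), which kept 17895 of 37951 genes. P-values were adjusted over all genes tested by the Benjamini-Hochberg method, and 0.05 was the threshold. CPM values use library totals. With totals of 15522780 to 23439799, a floor of 3 counts per library bounds the fold of genes at or under it, and this covers counting error only. A symbol with several identifiers is given by the most abundant. Genes were named as the largest called changes in each direction among those above a set level, together with defining members of gene lists. The members and lists were chosen with earlier results of these data known. Some genes are in several lists, so the lists are not separate evidence. Alternatives were RLE normalization, no filter, a replicate block, only the libraries compared, DESeq2 1.42.0, a minimum fold and each library left out, and the steps were tested on simulated data. Gene positions are from GENCODE v44. Promoters are from RefSeq. Some list members are not reported here.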

Additional observations from a re-analysis of the deposited data

Results flagged for a closer look

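Each result here is a difference between the day-2 change of PPS cells and that of DE(a) cells, both in DE(b) medium. DE(a) cells had activin on both days and PPS cells on day 2 only. PPS cells also lost BMP4, bFGF and a higher dose of CHIR on day 2. A difference in the change of medium and one in response cannot be told apart. Each result passed edgeR's interaction test at an adjusted p under 0.05, with 2 libraries per condition. Values are the log2 fold change of PPS cells minus that of DE(a) cells. In all, 3567 of 17895 genes passed.

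Among genes of the Nodal pathway and of anterior streak and endoderm, the difference was 12.89 for CER1, 6.04 for SOX17, 5.59 for GSC, 5.03 for OTX2, 4.85 for EOMES, 3.55 for NODAL and 2.38 for MIXL1. CXCR4, an endoderm surface marker, stood at -8.42. These genes are among those called, and of the 17 definitive endoderm genes tested 7 were called higher and 3 lower.

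Among mesoderm genes the difference was 8.12 for RSPO3, 5.64 for FOXC1, 5.46 for APLNR and 3.15 for DLL3. For TBX3 it was -3.25. Of the adhesion genes, CDH1 had -2.09 and the EMT factor ZEB1 had 3.63.

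The rule for named genes also took LRRTM1 at 9.28, ADAMTS18 at -7.49 and GADD45G at -7.39. Genes with a condition at or under 3 counts in each library are given by their edgeR adjusted p alone, which was 4.57e-05 for ARSF, 6.26e-05 for RNASE1, 0.00154 for RFPL2, 0.0072 for AL139300.1 and 0.0207 for GABRA4. What lies behind these differences was not tested.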

How the results depend on the processing

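The limits are those of 2 libraries per condition. The number of genes called moved by over 1.5 times under some of the settings given here, and the spread between replicates was estimated over all 34 libraries. Against PPS-24h, 3673 genes were called, with 1212 higher where only the libraries compared were fitted. When a fold of at least 2 was required, 1064 were called, 502 higher and 562 lower. Leaving out single libraries gave 2108 to 3556 called, 1075 to 1820 higher and 980 to 1736 lower. For the interaction with DE(a) cells (3567 called), only the libraries compared gave 2004, 922 higher and 1082 lower, a fold of at least 2 gave 669, 278 higher and 391 lower, and single libraries left out gave 2056 to 3896, 1056 to 2052 higher and 1000 to 1922 lower. Against PPS-PM (3227), a fold of at least 2 gave 886, 535 higher and 351 lower, and single libraries left out gave 1770 to 2926, 1016 to 1668 higher and 707 to 1258 lower. Against PPS-LM (3403), these were 1163, 600 higher and 563 lower, and 2126 to 2270, 1075 to 1213 higher and 968 to 1195 lower. RLE normalization, no filter on low counts and DESeq2 kept each total within 1.5 times, at 3608, 3952 and 4198 against PPS-24h. A fold of at least 2 asks for more than a difference from 0. The cause of the other moves was not tested.

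Samples with the same replicate number were not shown to be paired. The correlation of their deviations was over 0.1 in 96 of 136 pairs of conditions, from -0.20 to 0.57, and 0.17 for PPS-DE(b) and PPS-24h. With the replicate number as a block, 4655 genes were called against PPS-24h, 4844 for the interaction, 4158 against PPS-PM and 4046 against PPS-LM. Under the block MIXL1 (edgeR adjusted p = 0.0302), TBX6 (0.0332) and NANOS3 (0.0415) were called against PPS-24h and APLNR (0.0352) against PPS-PM, and no called gene named in the text lost its call.

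A sign changed only for genes near 0 that had not been called, all of them in single libraries left out except CDH1. Against PPS-24h the log2 fold change then ran from -0.28 to 0.70 for HOXA10, -0.066 to 0.60 for HOXA9, -0.28 to 0.079 for HOXB9, -0.20 to 0.47 for WNT5A, -0.28 to 0.078 for ITGB1, -0.054 to 0.16 for ACVR2B, -0.034 to 0.24 for SMAD6, -0.42 to 0.28 for SNAI1 and -0.25 to 0.083 for MKI67. It ran from -0.14 to 0.25 for APLNR against PPS-LM and from -0.083 to 0.096 for CDH1 against PPS-PM, where CDH1 stood at 0.01 with no filter. When a fold of at least 2 was required, calls of genes with smaller changes were lost, and also some with larger ones. Against PPS-24h these included FST (edgeR adjusted p = 0.0828) and FGF17 (0.148). DKK4 lost its call against PPS-LM (0.0827). In the interaction, GABRA4, SOX17 and MIXL1 lost theirs (0.0691, 0.0576 and 0.0675). Where only the 4 libraries compared were fitted, the calls of ACVR1B (edgeR adjusted p = 0.128), COL6A1 (0.0757), CXCR4 (0.115), FGF17 (0.0841), MEIS1 (0.0541), PRDM14 (0.166) and SNAI2 (0.0872) were lost. With no filter, ACVR1B (0.105) and, against PPS-PM, CDH2 (0.0511) lost theirs, and MIXL1, TBX6, DKK4 and FOXA1 (2.55e-05, 0.0123, 1.47e-23 and 0.0385) were called, as were APLNR and FOXC1 against PPS-PM (1.02e-05 and 0.0372). APLNR was also called against PPS-PM where only the libraries compared were fitted (0.0156). Library scaling by TMM in place of totals moved 10 of 298 levels by more than the spread between replicates. Over 64 counts of list members called against PPS-24h, 515 of 640 values stayed within 1.5 times the count given.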
